A study of Mus musculus with 16 samples.

Results

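The small leucine-rich proteoglycans (SLRPs) are represented here by 9 genes, Dcn (decorin), Bgn (biglycan), Aspn (asporin), Lum (lumican), Fmod (fibromodulin), Kera (keratocan), Omd (osteomodulin), Prelp (prolargin) and Ogn (osteoglycin). They were chosen by name from the 21923 genes of the expression table of mouse gastrocnemius, a muscle of the calf. The rise of Kera with amiloride was part of the choice, so AM vs. CAC is a description from which nothing is read as a test, with no p-value given, and Kera is tested only in KD vs. NOR, which uses neither of these groups. All 9 genes had enough counts to enter every comparison.

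SLRPs are secreted proteins with a core of leucine-rich repeats, most of which carry chondroitin, dermatan or keratan sulfate chains. They bind collagen fibrils, regulate fibril diameter and spacing, and several hold or modulate growth factors such as TGF-β. Class I holds Dcn, Bgn and Aspn, class II holds Lum, Fmod, Kera, Omd and Prelp, and class III holds Ogn. In muscle they lie in the connective tissue around the fibres and in tendon, and are made mainly by fibroblasts, fibro-adipogenic progenitors and tenocytes.

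RNA was sequenced from 16 gastrocnemius muscles taken on day 30, 4 in each of 4 groups. NOR mice were injected with PBS and carried no tumor. CAC mice carried subcutaneous LLC (Lewis lung carcinoma) or CT26 (colon carcinoma) tumors and were injected with PBS. AM mice (titled T) carried the same tumors and received amiloride, a diuretic that also blocks exosome release, at 2 mg/kg daily from day 9. In KD mice the LLC or CT26 cells injected had been depleted of Rab27 by knock-down, and these mice were injected with PBS. The PBS injections were also daily from day 9. In each group, replicates 1 and 2 were labelled C57BL/6, the host of LLC, and replicates 3 and 4 BALB/c, the host of CT26, so that strain and tumor line cannot be told apart. No library came from a mouse given amiloride without a tumor, the labels give both sexes for BALB/c, and ages were not in the labels used here. CAC mice serve both as the treated group against NOR and as the control of AM and KD, so these comparisons share samples.

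Several libraries stood apart from the others. CAC 4, AM 1, AM 3 and KD 1 had H2-Q2 at 1.31 to 4.40 CPM, against at most 0.0755 CPM in the other libraries, whichever strain was on the label. The summed level of 10 lymphoid markers was 1.60 to 9.72 CPM in NOR 1, CAC 1, CAC 4, KD 2 and KD 3 and 50.1 to 571 CPM in the other 11 libraries. KD 3 had 0 counts on 4 Y-linked genes, and the others 4558 to 8438. Cartilage and bone markers summed to 106 CPM in AM 3 and 69.1 CPM in KD 4, and to 12.8 to 27.6 CPM in the other libraries. Library totals were 35913190 to 61032708 counts, and none of the 12 muscle fibre markers was at 0 in any library. CPM below are counts scaled to library size after TMM normalization across the 16 libraries, and FPKM are the deposited length-scaled values.

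On the mouse genome (GRCm38), 8 of the 9 genes lie near another member, in 3 groups. Dcn (chr10:97479609-97518143), Lum (chr10:97565128-97572703) and Kera (chr10:97606879-97613692) follow each other with gaps of 46984 and 34175 bp. Aspn (chr13:49544443-49567565), Omd (chr13:49582462-49592822) and Ogn (chr13:49608046-49624501) are separated by 14896 and 15223 bp, with Ecm2, another leucine-rich repeat gene, 11653 bp before Aspn. Prelp (chr1:133910304-133921414) and Fmod (chr1:134037254-134048277) are 115839 bp apart, and Bgn (chrX:73483602-73495933) stands alone. Neighbours differed in level: in NOR mice Dcn had 739 ± 68.4 FPKM (SD, n = 4), Lum 29.9 ± 6.88 and Kera 8.31 ± 2.84 FPKM.

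The upstream sequences of Fmod and Aspn are shown because these genes differed in CAC vs. NOR, Fmod being the most reduced of the tested members and Aspn the least changed. Each is the 250 bases before the RefSeq start on the plus strand of GRCm38.p6, chr1:134037004-134037253 for Fmod and chr13:49544193-49544442 for Aspn, with capitals for the E-box letters CANNTG, which basic helix-loop-helix factors recognise, and for TATAAA or its reverse complement.
Fmod: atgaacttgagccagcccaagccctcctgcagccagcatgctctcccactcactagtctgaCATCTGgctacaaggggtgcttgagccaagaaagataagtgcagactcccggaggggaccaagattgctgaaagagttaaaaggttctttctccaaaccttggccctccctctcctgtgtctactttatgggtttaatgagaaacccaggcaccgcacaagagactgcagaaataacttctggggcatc
Aspn: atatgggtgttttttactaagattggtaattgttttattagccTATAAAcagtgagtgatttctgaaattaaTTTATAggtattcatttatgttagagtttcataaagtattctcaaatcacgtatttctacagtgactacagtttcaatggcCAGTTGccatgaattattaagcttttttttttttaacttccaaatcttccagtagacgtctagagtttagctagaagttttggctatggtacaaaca
The Fmod window held 1 E-box match and 0 TATAAA matches, and the Aspn window 1 and 2, with no overlap of the motifs. Of 32851 RefSeq windows of this length, 66.2% held an E-box match and 12.4% a TATAAA match on either strand. Of the 7 members with an entry, Ogn held 3 and Bgn 1 E-box matches, and Kera, Omd and Prelp 0, while Ogn was the only other of these genes with TATAAA (2 matches).

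Per unit of length, decorin was by far the most abundant SLRP transcript of normal gastrocnemius. In NOR mice Dcn reached 739 ± 68.4 FPKM (SD, n = 4), followed by Fmod at 197 ± 33.5, Bgn at 104 ± 9.67, Prelp at 31.0 ± 4.70, Lum at 29.9 ± 6.88, Ogn at 27.6 ± 3.29, Aspn at 12.6 ± 1.42, Kera at 8.31 ± 2.84 and Omd at 1.39 ± 0.266 FPKM. The ranges of Prelp, Lum and Ogn overlapped in NOR mice, as did those of Aspn and Kera, and the other neighbours in this order were separated in all 4 mice. In CAC mice, Bgn (90.6 ± 11.5 FPKM) ranked above Fmod (62.2 ± 20.0 FPKM), without overlap, and Kera (0.480 ± 0.270 FPKM) below Omd (1.34 ± 0.223 FPKM), also without overlap. In AM mice, Fmod (159 ± 27.2 FPKM) stood above Bgn (124 ± 28.6 FPKM) within every mouse, although their ranges over the mice overlapped. Kera (5.30 ± 2.29 FPKM) stood above Omd (1.46 ± 0.542 FPKM) in every mouse.

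The makeup of the SLRP pool shifted between NOR and CAC gastrocnemius. Decorin took 64.1% ± 3.41 (SD, n = 4) of the summed FPKM of the 9 genes in NOR mice, with a range of 59.1% to 66.5%, and 76.3% ± 1.76 in CAC mice, with a range of 74.8% to 78.7%. Fmod took 17.2% ± 3.44 in NOR mice and 6.58% ± 1.84 in CAC mice. In AM mice the shares were 64.7% ± 1.72 for Dcn and 14.6% ± 0.634 for Fmod, and in KD mice 65.6% ± 4.12 and 11.3% ± 3.87. These shares are a description, since Kera and the AM and CAC groups entered the choice of genes. The summed level was 1093 to 1217 FPKM in NOR, 781 to 1154 in CAC, 845 to 1265 in AM and 486 to 1245 FPKM in KD mice, with KD 2 (559 FPKM) and KD 3 (486 FPKM) lowest of all 16.

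**Figure D1:**
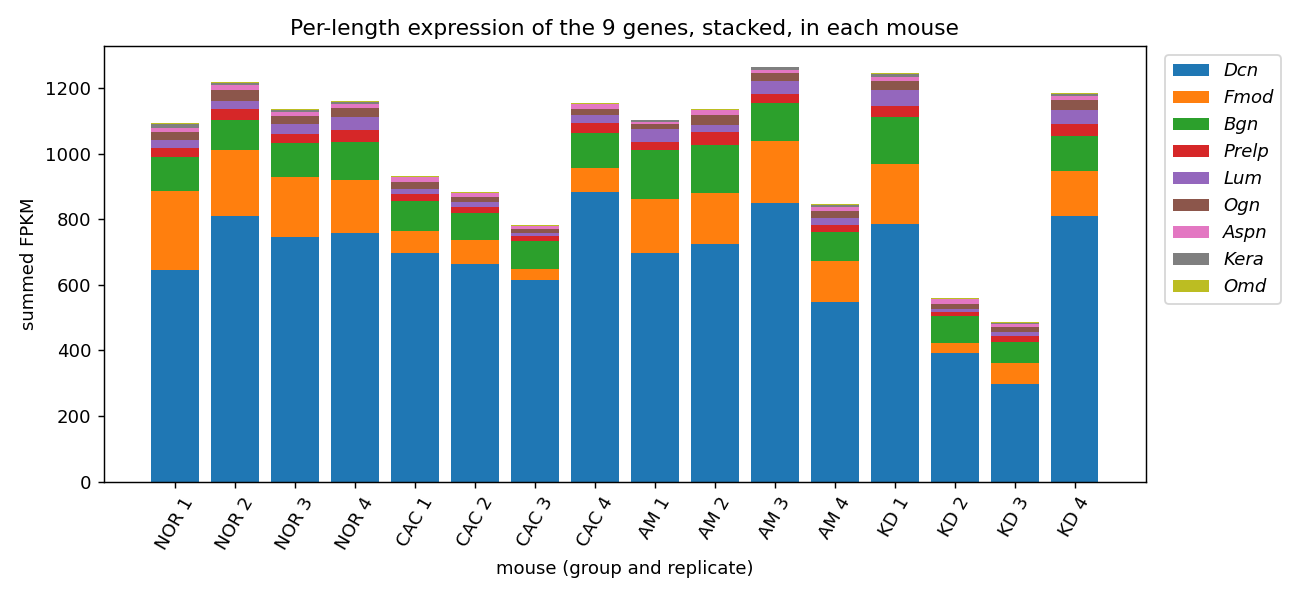
Stacked bars of FPKM, a per-length level, of the 9 SLRP genes (vertical axis) in each of the 16 mice (horizontal axis, group and replicate), 1 colour per gene. Dcn makes up most of every bar, the Fmod segment is small in the 4 CAC mice (6.58% of the sum on average, against 17.2% in NOR), and KD 2 and KD 3 have the shortest bars at 559 and 486 FPKM.

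The first question was which SLRP genes changed in cachectic muscle, and CAC vs. NOR showed a reduction in part of the family. Genes called different had an edgeR quasi-likelihood FDR of at most 0.05 over all 14666 genes tested and a change of at least 1.5-fold. Of the 8 members tested (all but Kera), 2 were downregulated, Fmod and Ogn, and 0 were upregulated, while 5.13% of all genes were called lower and 4.32% higher. Unadjusted p was below 0.05 for 4 of the 8, against 29.1% of all genes, and DESeq2 and limma-voom each called 3 lower and 0 higher, where they called 7.38% and 5.63% of all genes lower. The median log2 fold change of the 9 genes was −0.56, and that of all genes 0.01. This median includes the untested Kera and is a description only. In bulk muscle, fewer cells of a type and less RNA per cell cannot be told apart.

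**Figure D2:**
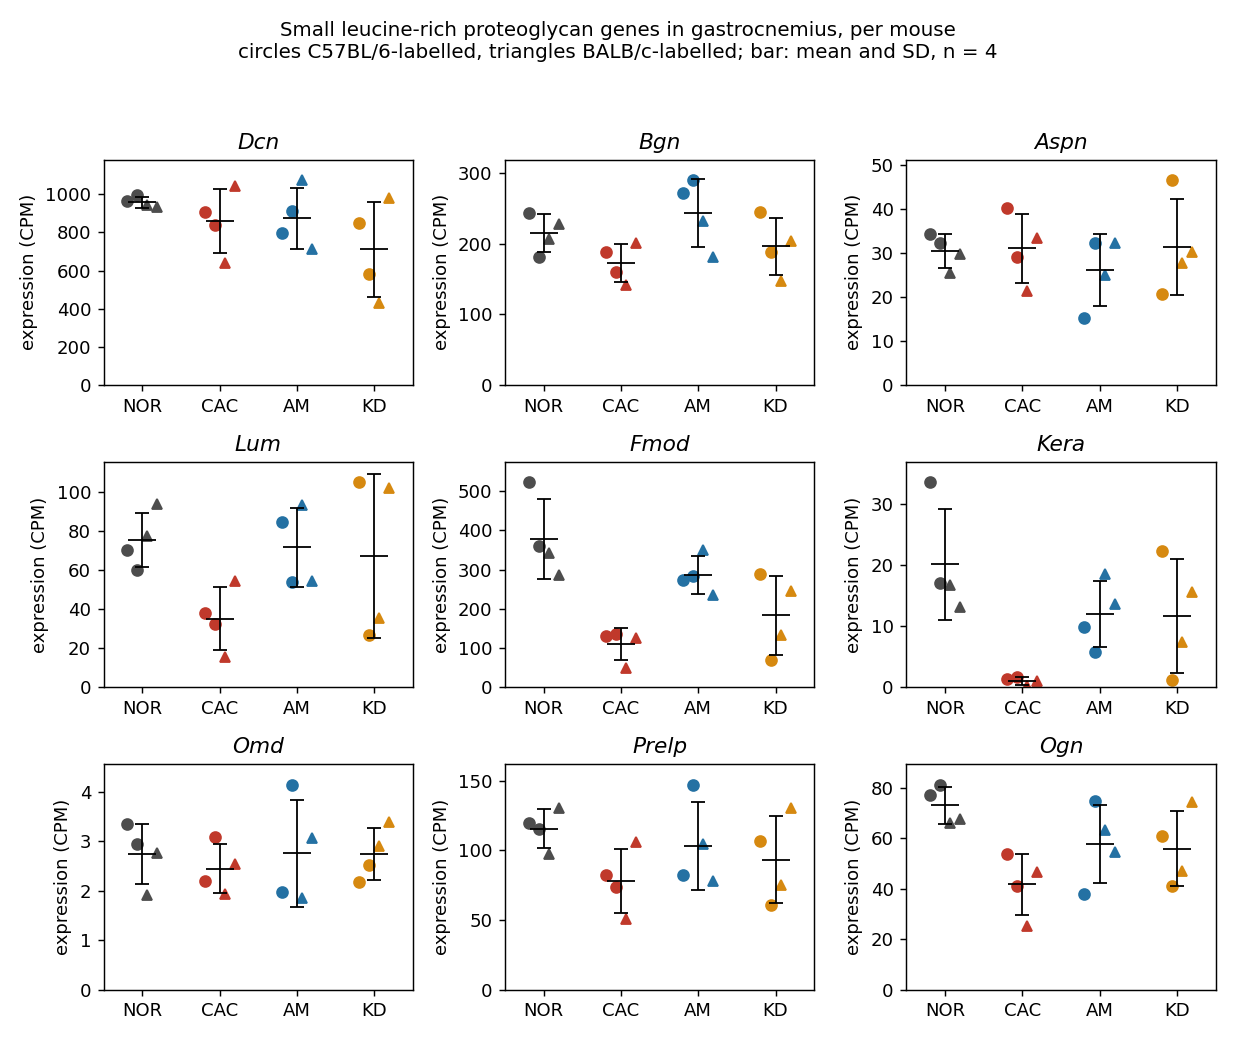
Expression in CPM (vertical axes, linear, from 0) of each SLRP gene in the 4 mice of each group (horizontal axes), with circles for C57BL/6-labelled and triangles for BALB/c-labelled mice and black bars for mean and SD (n = 4). The CAC points of Kera, Fmod, Lum and Ogn lie below every NOR point, those of Dcn, Bgn, Aspn, Omd and Prelp overlap NOR, and for Kera, Fmod and Lum the lowest KD point lies within the CAC points and the highest above the lowest NOR point.

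Fmod, which binds collagen I and is abundant in tendon, fell most among the tested members. Its levels were 522, 360, 342 and 287 CPM in NOR mice 1 to 4, and 131, 137, 49.1 and 125 CPM in CAC mice 1 to 4. All CAC mice were below all NOR mice. The log2 fold change was −1.77 ± 0.332 (SE), a 3.42-fold lower level, with an edgeR FDR of 0.0129, and the two-sided exact permutation test on CPM gave p = 0.0286, the smallest that 4 against 4 mice allow. The change was −1.67 ± 0.195 in C57BL/6-labelled mice alone and −1.86 ± 0.493 in BALB/c-labelled mice alone, with edgeR FDR of 0.0451 and 0.203 from 2 mice per group.

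Ogn, the class III member, was reduced by a smaller amount. Its NOR levels were 77.1, 81.2, 66.1 and 67.6 CPM, and its CAC levels 53.7, 41.0, 25.4 and 46.6 CPM. The groups did not overlap. The log2 fold change was −0.81 ± 0.209, with an edgeR FDR of 0.0368 and an exact permutation p of 0.0286. This call was near the limit: the FDR lay between 0.0544 and 0.0975 without any 1 of NOR 1, NOR 2, NOR 3, NOR 4, CAC 2 or CAC 4.

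Lum, a keratan sulfate proteoglycan that limits fibril diameter, missed the FDR limit although its groups did not overlap. NOR mice had 70.3, 60.1, 77.1 and 93.5 CPM, and CAC mice 38.2, 32.3, 15.4 and 54.1 CPM. The log2 fold change was −1.11 ± 0.333, with an edgeR FDR of 0.0613 and an exact permutation p of 0.0286. DESeq2 called it (FDR 0.00798), as did limma-voom (FDR 0.0490) and edgeR without CAC 3 (FDR 0.0468) or without CAC 4 (FDR 0.0309).

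Kera, a keratan sulfate proteoglycan best known from the corneal stroma, had the largest difference of the family. NOR mice had 33.5, 17.1, 16.8 and 13.1 CPM, and CAC mice 1.31, 1.76, 0.228 and 1.04 CPM, from 58, 79, 12 and 66 counts. Every CAC mouse was far below every NOR mouse, with a log2 fold change of −4.22 ± 0.585, or 18.6-fold lower, given without a test. The difference was −3.99 ± 0.404 in C57BL/6-labelled and −4.55 ± 0.806 in BALB/c-labelled mice alone. Of the 8 tested members, 3 (Fmod, Lum and Ogn) had CAC groups entirely below NOR, and 10.5% of all genes did so.

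The remaining 5 members were not called. Prelp, which anchors basement membranes to connective tissue, had 97.3 to 131 CPM in NOR and 50.5 to 106 CPM in CAC mice (log2 fold change −0.56 ± 0.209, edgeR FDR 0.111). Decorin had 931 to 994 CPM in NOR mice, a coefficient of variation of 2.88%, and 642 to 1043.5 CPM in CAC mice, one of 19.5% (log2 fold change −0.16 ± 0.157, edgeR FDR 0.559). Biglycan, a close relative of decorin that can signal through toll-like receptors, had 181 to 243 CPM in NOR and 142 to 200 CPM in CAC mice (−0.32 ± 0.141, edgeR FDR 0.179). Aspn, which inhibits TGF-β signalling, had 25.3 to 34.2 CPM in NOR and 21.3 to 40.2 CPM in CAC mice (0.03 ± 0.190, edgeR FDR 0.948). Omd, known from mineralised tissue, had 1.92 to 3.36 CPM in NOR and 1.94 to 3.09 CPM in CAC mice (−0.17 ± 0.239, edgeR FDR 0.701).

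**Figure D3:**
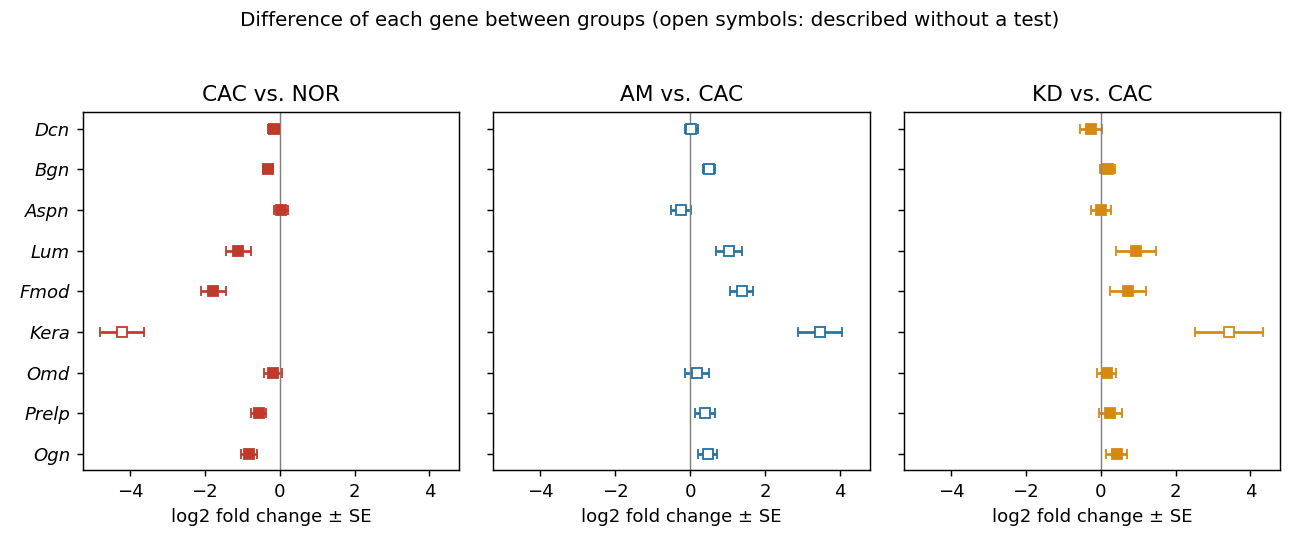
Log2 fold change ± SE (horizontal axes) of each SLRP gene (rows) in 3 comparisons, 1 per panel, from edgeR with 4 mice per group, with open symbols where no test was made. In CAC vs. NOR, Kera (−4.22), Fmod (−1.77), Lum (−1.11) and Ogn (−0.81) lie left of 0, and in AM vs. CAC Kera (3.47), Fmod (1.37) and Lum (1.03) lie farthest right, with wider errors in KD vs. CAC.

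The second comparison, AM vs. CAC, addressed amiloride treatment and is given as values only, because it was used to choose the genes. Kera was 9.94, 5.79, 18.5 and 13.7 CPM in AM mice 1 to 4, each above every CAC mouse, with a log2 fold change of 3.47 ± 0.598, or 11.1-fold. The value was 2.36 ± 0.391 in C57BL/6-labelled mice alone and 4.65 ± 0.819 in BALB/c-labelled mice alone. Fmod was 274, 284, 351 and 235 CPM, also above every CAC mouse (1.37 ± 0.300). The count of calls by edgeR in this comparison was 2 of 9, Kera and Fmod, beside 1.63% of all genes called higher and 6.08% with AM groups entirely above CAC. Because the comparison chose the genes, this count is no test of them and the shares are printed only for reference.

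Among the others, Lum had 84.4, 54.0, 93.3 and 54.4 CPM in AM mice, a log2 difference of 1.03 ± 0.353 from CAC. AM 2 lay just below the highest CAC mouse, so that the groups overlapped. Bgn (0.50 ± 0.171), Ogn (0.47 ± 0.257), Prelp (0.40 ± 0.260), Omd (0.18 ± 0.315) and Dcn (0.03 ± 0.180) differed by less, and Aspn by −0.24 ± 0.268. AM 1 had the lowest Aspn and Ogn of the AM mice (15.1 and 37.9 CPM), together with a Lum level of 84.4 CPM. The median log2 difference of the 9 genes was 0.47, beside 0.01 over all genes tested.

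The third comparison asked how the SLRP genes stood when the tumor cells carried the Rab27 knock-down, which limits exosome release. In KD vs. CAC, edgeR called 0 of the 8 members tested, with 0 at an unadjusted p below 0.05, and DESeq2 and limma-voom also called 0. Over all genes edgeR called 0.00685% and 11.1% had an unadjusted p below 0.05, while DESeq2 called 2.33% (237 higher and 103 lower) and limma-voom 0%. KD mice differed widely from each other in these genes.

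Kera was 22.4, 1.17, 7.46 and 15.7 CPM in KD mice 1 to 4, so that KD 2 lay within the CAC range and KD 1 and KD 4 within the NOR range. The log2 difference from CAC was 3.44 ± 0.907, given without a test, and the groups overlapped. Fmod was 288, 69.8, 132 and 245 CPM (0.74 ± 0.483, edgeR FDR 0.619, exact permutation p = 0.229). Lum was 105, 26.6, 35.4 and 102 CPM (0.95 ± 0.537, edgeR FDR 0.557, exact permutation p = 0.286). In each of these genes KD 2 and KD 3 were the lowest KD mice, which was true of decorin as well (850, 581, 431 and 983 CPM, −0.26 ± 0.298, edgeR FDR 0.821). Ogn had 41.0 to 74.4 CPM in KD mice (0.42 ± 0.272, edgeR FDR 0.613), and Prelp 60.8 to 131 CPM (0.26 ± 0.301, edgeR FDR 0.828). Bgn, Aspn and Omd had log2 differences of 0.19 ± 0.202, 0.01 ± 0.275 and 0.17 ± 0.254. Aspn ran the other way in 1 mouse, with its highest level of all 16 mice in KD 2 (46.5 CPM).

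The low SLRP levels of KD 2 and KD 3 went with differences in markers of several cell types. The summed level of 12 fibroblast and fibro-adipogenic progenitor markers was 722 and 770 CPM in KD 2 and KD 3, against 1153 and 1290 CPM in KD 1 and KD 4. The sum of 10 tendon markers was 247 and 238 CPM, against 491 and 353 CPM, and the lymphoid sum 6.00 and 1.60 CPM, against 381 and 138 CPM. Macrophage markers summed to 87.9 and 52.1 CPM, against 390 and 405 CPM, and adipocyte markers to 373 and 513 CPM, against 2568 and 2572 CPM. Muscle fibre markers were higher, at 211170 and 213230 CPM, against 123830 and 155460 CPM. Their part in the result was not tested. In the 2 KD and 2 CAC libraries rich in lymphoid markers, the KD vs. CAC values were 1.52 ± 0.519 for Fmod, 2.12 ± 0.393 for Lum and 1.03 ± 0.290 for Ogn, with edgeR FDR of 0.298, 0.176 and 0.246. This subset was chosen after seeing the data. It leaves out KD 2 and KD 3 and keeps CAC 3, the lowest CAC mouse in each of these genes. Its values therefore do not test the part of the markers.

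Against NOR, neither AM nor KD gastrocnemius had a called member. In AM vs. NOR, edgeR called 0 of 8, with 0 at an unadjusted p below 0.05, and in KD vs. NOR 0 of 9, with 1 at an unadjusted p below 0.05, while DESeq2 and limma-voom called 0 in both. Over all genes edgeR and limma-voom called 0% in both and DESeq2 0.475% and 0.21%, and 9.19% and 3.54% had an unadjusted edgeR p below 0.05. Fmod had the largest tested difference in each, −0.39 ± 0.190 in AM vs. NOR (edgeR FDR 0.558) and −1.01 ± 0.418 in KD vs. NOR (edgeR FDR 0.999, exact permutation p = 0.0571). In KD vs. NOR, Kera differed by −0.75 ± 0.710 (edgeR FDR 0.999, exact permutation p = 0.229). With the libraries rich in lymphoid markers alone, which leave out NOR 1, KD 2 and KD 3, this value was 0.30. Kera in AM vs. NOR stood at −0.73 ± 0.383 without a test, from −1.64 in C57BL/6-labelled to 0.08 in BALB/c-labelled mice alone. In AM vs. KD, edgeR, DESeq2 and limma-voom called 0 of 8 members, with 0 at an unadjusted edgeR p below 0.05, where edgeR and limma-voom called 0% of all genes, DESeq2 called 0.00678%, and 1.11% had such a p. By edgeR, a difference in response between the labelled strains was called for 0 of 8 members in CAC vs. NOR and in KD vs. CAC and for 0 of all genes. Unadjusted p for that difference was below 0.05 for 0 of 8 members in each, against 4.89% and 5.65% of all genes. Each labelled strain had only 2 mice per group, and H2-Q2 did not follow the strain label. The lack of calls therefore does not show that the labelled strains responded alike.

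The partners of the SLRPs were read from gene lists. The fibril-forming, fibril-associated and type VI collagens, to which SLRPs bind, were reduced throughout. In CAC vs. NOR 13 of 13 genes were downregulated, beside 5.13% of all genes, among them Col2a1 with very few counts in CAC mice. Their median log2 fold change was −2.44, beside 0.01 for all genes. Col2a1 (−5.20 ± 0.681), Col1a1 (−3.61 ± 0.235) and Col1a2 (−3.12 ± 0.218) had the largest falls, with Col1a1 going from 665 to 54.6 CPM on average and Col2a1 from 2.19 to 0.0556 CPM. Col2a1 was near 0 in CAC mice and entered CAC vs. NOR and KD vs. CAC through the other group, where it is high. Its fold changes and its call are therefore no support for the list. The collagen median of −2.44 lay below the log2 fold change of each of the 9 SLRP genes except Kera. In KD vs. CAC, edgeR called 0 of 13, with 12 at an unadjusted p below 0.05 and a median of 1.82, beside 0.00685% of all genes called and 11.1% at such a p. In AM vs. CAC, given without a test, 12 of the 12 collagens with enough counts had log2 differences above 0, from 0.87 to 3.02 with a median of 1.91. With BALB/c-labelled mice alone 0 of 13 were called in CAC vs. NOR at a median of −2.37, and without the 4 libraries sharing H2-Q2, 13 of 13.

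Other members of the leucine-rich repeat family and the enzymes that build their sugar chains were also counted, beside 5.13% of all genes called lower and 4.32% higher in CAC vs. NOR. Of 8 other SLRP family genes tested of 9 listed, 2 fell and 0 rose, with a median log2 fold change of −0.71. They were Chad (chondroadherin, a collagen-binding protein of cartilage and tendon), from 43.2 to 3.98 CPM (−3.45 ± 0.569, edgeR FDR 0.00858), and Ecm2, the neighbour of Aspn, from 50.2 to 29.6 CPM (−0.76 ± 0.199, edgeR FDR 0.0382). Of 27 genes for chondroitin, dermatan and keratan sulfate synthesis, 1 fell and 1 rose, a share close to that of all genes, with a median of −0.16. The gene that fell was Xylt1, which places the first xylose on the core protein, from 14.7 to 6.38 CPM (−1.21 ± 0.164), and the gene that rose was Chst11, a chondroitin 4-O-sulfotransferase, from 10.3 to 17.1 CPM (0.74 ± 0.205). In KD vs. CAC, edgeR called 0 genes of these 2 lists, with 2 of 7 and 0 of 26 at an unadjusted p below 0.05, beside 11.1% of all genes.

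Of 14 proteases and cofactors that process or cleave SLRPs, 6 fell and 3 rose in CAC vs. NOR (median −0.28 on the log2 scale), beside 5.13% of all genes called lower and 4.32% higher. Bmp1, the tolloid protease that removes the propeptide of several SLRPs and of procollagen, fell by 1.07 ± 0.197 on the log2 scale, whereas its relative Tll1 rose by 1.14 ± 0.200. The neutrophil collagenase gene Mmp8 rose from 0.511 to 13.6 CPM (4.69 ± 1.04) and the gelatinase gene Mmp9 from 6.07 to 18.5 CPM (1.61 ± 0.347). Of 16 ligands and receptors bound by SLRPs, 1 rose, the toll-like receptor gene Tlr4 (0.86 ± 0.213), and 1 fell, fibronectin, Fn1 (−1.22 ± 0.197), shares close to those of all genes, and the median was −0.02. The TGF-β ligand and receptor genes of this list and Mstn were not called. In KD vs. CAC, edgeR called 0 genes of both lists, with 1 of 15 and 5 of 16 at an unadjusted p below 0.05, beside 11.1% of all genes.

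Part of the markers of cells that make SLRPs fell in CAC vs. NOR, 9 of 22, beside 5.13% of all genes. Of 10 tendon markers, 5 fell and 0 rose, led by Cilp2 (−3.93 ± 0.441), Tnmd (tenomodulin, −3.38 ± 0.340) and Comp (−2.38 ± 0.375), whereas Scx, the tendon transcription factor, was 7.74 to 18.5 CPM in NOR and 8.85 to 18.5 CPM in CAC mice. The summed tendon markers were 435 to 668 CPM in NOR, 197 to 356 in CAC, 370 to 542 in AM and 238 to 491 CPM in KD mice. Of 12 fibroblast and fibro-adipogenic progenitor markers, 4 fell and 0 rose, led by Cd248 (−1.68 ± 0.231), Dpt (−1.47 ± 0.157) and Clec3b (−1.33 ± 0.228), and their sum was 1132.5 to 1427 CPM in NOR, 577 to 894 in CAC, 1008 to 1232.5 in AM and 722 to 1290 CPM in KD mice. None of these 22 markers was at 0 in any library, and their part in the SLRP differences was not tested.

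Marker lists of other cell types were counted in CAC vs. NOR in the same way, beside 5.13% of all genes called lower, 4.32% called higher and 29.1% at an unadjusted p below 0.05. Of 12 muscle fibre, 8 macrophage, 10 lymphoid, 6 adipocyte and 3 tested cartilage and bone markers, edgeR called 0, with 3, 2, 0, 0 and 1 at an unadjusted p below 0.05. Of 6 endothelial markers, Pecam1 alone was called (0.77 ± 0.143), and 5 of 5 erythrocyte markers rose, with a median of 2.30. The summed erythrocyte markers were 1049 to 1359 CPM in NOR, 3628 to 8614 in CAC, 961 to 15866 in AM and 2177 to 21330 CPM in KD mice. The part of these cells in the result was not tested.

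**Figure D4:**
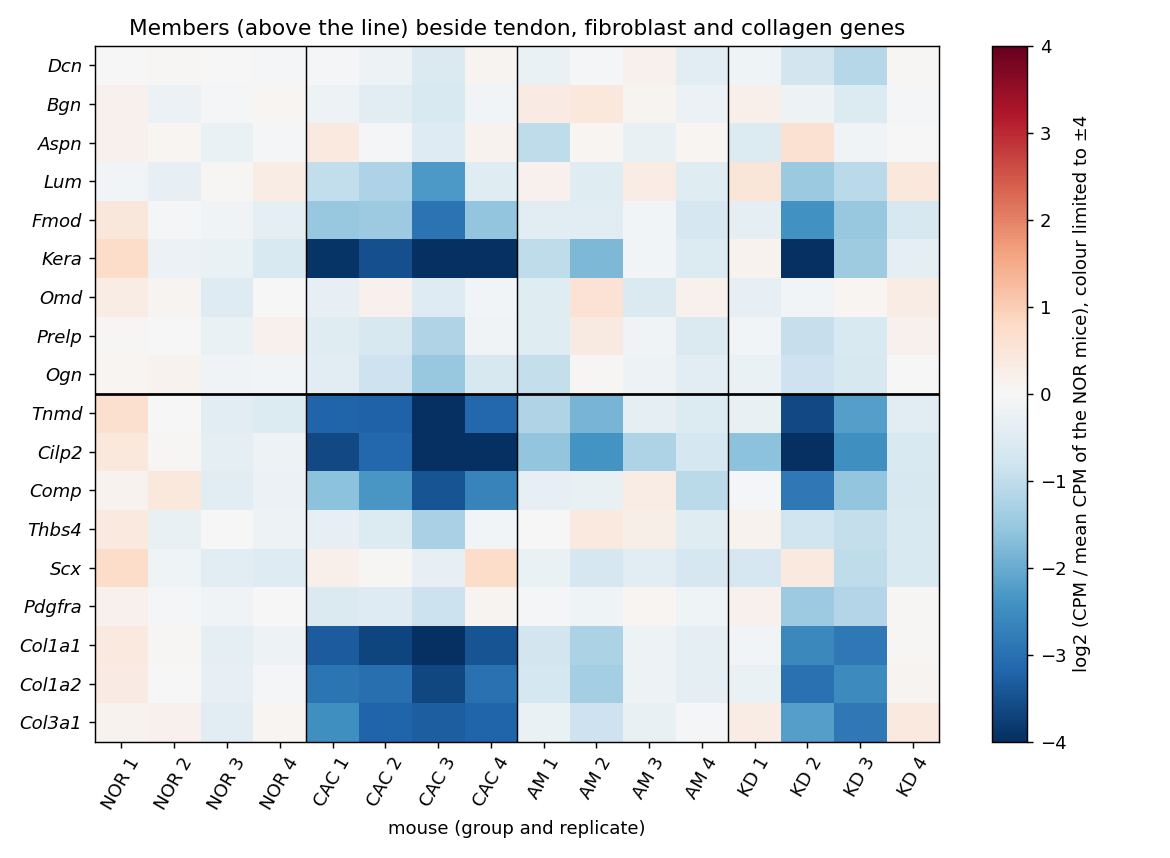
Colour shows log2 of CPM over the mean CPM of the NOR mice, limited to ±4, for the SLRP genes (rows above the line) and for tendon, fibroblast and collagen genes (rows below) in each of the 16 mice (columns). Kera, Tnmd and Cilp2 are dark blue in the 4 CAC mice and in KD 2, where Kera was 1.17 CPM and Tnmd 1.95 CPM, while Aspn, Omd and Scx are paler in these mice.

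Across the 16 libraries, the SLRP genes were correlated to different degrees. These correlations of log2 CPM are descriptions over points that share groups, library depth and scaling. Fmod and Kera had r = 0.926, and 0.935 with group means removed. Fmod and Lum had r = 0.861 (0.83 with group means removed), Lum and Kera 0.849 (0.771), and Prelp and Ogn 0.883 (0.852). For the other neighbours on chromosome 10, r was 0.327 for Dcn and Kera (0.540 with group means removed) and 0.612 for Dcn and Lum (0.819). Aspn had r between −0.268 and 0.495 with the other 8 genes, the highest with Omd.

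The genes most like Kera over the 16 libraries, among 13208 with a mean of at least 1 CPM, were Tnmd (r = 0.967), Ssc5d (0.966), Kcng4 (0.966), Grb14 (0.962) and Gamt (0.960). Tnmd had 16.5 to 37.6 CPM in NOR, 1.37 to 2.70 in CAC, 6.54 to 18.4 in AM and 1.95 to 19.4 CPM in KD mice. The genes most like Dcn were Rnase4 (r = 0.895), Adgrd1 (0.892), Pdpn (0.884), Bmper (0.873) and Scara5 (0.871), and 0 genes were shared by both sets of 5. With the summed fibroblast markers, Fmod had r = 0.943, Ogn 0.901, Kera 0.880 and Dcn 0.642, and Aspn −0.00270. The summed tendon markers gave 0.934 for Fmod, 0.776 for Ogn, 0.781 for Kera, 0.703 for Dcn and −0.115 for Aspn. Dcn also had r = 0.703 with the summed macrophage markers, where Fmod had 0.153 and Kera −0.0387. With the summed muscle fibre markers the values ran from −0.129 for Dcn to 0.513 for Aspn.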

How the data were processed

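Poly(A) RNA-seq of gastrocnemius from 16 mice was analysed, 1 library per mouse and 4 mice per group (NOR, CAC, AM and KD). The authors deposited raw read counts as whole numbers for each gene, and FPKM values, in which counts are scaled by library size and gene length. The submitters' processing notes name fastp, Bowtie2, HISAT2 and StringTie 1.3.1 and the builds mm9 and GRCm38, without roles, and strandedness is not given in the sources used here. Reads of overlapping or antisense genes therefore cannot be told apart. All sample columns were mapped by name. The table also holds annotation columns, which were not used.

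The main test was edgeR 4.0.16 in R 4.3.3, applied to the 8 libraries of each pair of groups without a covariate. Low genes were removed by filterByExpr (minimum count 10, minimum total 15), libraries were scaled by TMM, and quasi-likelihood F tests from glmQLFit were adjusted over all genes tested by Benjamini-Hochberg. NOISeq, the authors' tool, was not used here. A call needed FDR ≤ 0.05 together with a fold change ≥ 1.5 or ≤ 0.667. FPKM served to compare levels between genes, and log2 CPM used a prior count of 2. Exact permutation tests were two-sided. DESeq2 1.42.0, limma-voom (limma 3.58.1), other scalings and filters, strain and replicate terms, and subsets of libraries were alternatives, of which 3 (without 4 libraries, libraries rich in lymphoid markers, total counts as the only scaling) were chosen after seeing the data. Depth was at least 35913190 counts per library, and mice of a group differed by far more than counting noise (chi-square per degree of freedom at least 61.8).

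Members and gene lists were chosen with earlier results of these data known, so their counts are no independent support. The genes named are all members, up to 3 called genes of each list with the largest change in CAC vs. NOR, the 5 genes most like Kera and Dcn, and genes that check labels. Scx, the genes in the heat map, and genes compared with a named gene were added after their values were seen. Ccn2, Xist and H2-Ea did not match a symbol and were not analysed here, and Nnt stands on 2 lines. Positions are from GENCODE M21, upstream windows from RefSeq (GRCm38.p6).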

Additional observations from a re-analysis of the deposited data

Results flagged for a closer look

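Fmod in CAC mouse 3 was 49.1 CPM, while the other CAC mice had 125 to 137 CPM. The gap to the nearest mouse was 0.871 of the group's range, above Dixon's 95% critical value for 4 samples. This was the only one of 36 tests of a group (9 genes in 4 groups) to pass, and chance passes about 1 in 20. CAC 3 also had the lowest summed fibroblast (577 CPM) and tendon markers (197 CPM) of all 16 libraries and the lowest summed muscle fibre markers (80453 CPM).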

How the results depend on the processing

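The members' fold changes and counts of calls were recomputed under 21 alternatives, and no called difference reversed. Shares of all genes called were counted for the main edgeR fit, DESeq2 and limma-voom alone. Under the other alternatives a count of members has no such share beside it. The strain-response test was repeated with RLE size factors and with no low-count filter, with 0 members called in each, and levels, shares, correlations and likeness were not recomputed. The count of members lower in CAC vs. NOR (2) was 1 with C57BL/6-labelled mice alone, 0 with BALB/c-labelled mice alone, 0 with the libraries rich in lymphoid markers alone (NOR 2, 3 and 4 and CAC 2 and 3), 3 with the replicate block, and 1 to 3 when each mouse was left out. It fell to 1 without NOR 1, NOR 2, NOR 3, NOR 4 or CAC 2. Fmod kept a value of −1.88 to −1.50 and lost its call in 2 alternatives, BALB/c-labelled mice alone (FDR 0.203) and the libraries rich in lymphoid markers (FDR 0.0834), while Ogn lost its call in 10, its values running from −1.11 to −0.62 over all 21. Prelp was called with the replicate block (FDR 0.0427) and without CAC 4 (FDR 0.0417), and Lum also with upper-quartile scaling (FDR 0.0496).

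The count of members higher in AM vs. CAC (2), which is no test because the comparison chose the genes, was 3 with DESeq2, 1 with the labelled strain as a covariate, 0 with the replicate block, 1 with all 16 libraries in 1 fit, 0 with C57BL/6-labelled mice alone, 0 with BALB/c-labelled mice alone, 0 without the 4 libraries sharing H2-Q2, 0 with the libraries rich in lymphoid markers alone, and 0 to 2 when each mouse was left out (0 without CAC 1, AM 3 or AM 4 and 1 without CAC 2, CAC 4, AM 1 or AM 2). The cause was not tested. Of 14674 genes tested, DESeq2 called 640 higher in AM vs. CAC, where edgeR called 239. Subsets of libraries leave fewer mice per group. The other 4 comparisons had 0 members called in every alternative. Replicate numbers were not found to pair the mice: same-numbered mice of different groups had correlations of deviations from −0.636 to 0.601, with 6 of 24 over 0.1, and the other 72 pairs −0.641 to 0.597. The strain covariate, leaving out mice and subsets with 2 mice per group rest on few samples, so a lost call there does not show a smaller change.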
